A study of Mus musculus with 56 samples.

Results

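Csf1 and Ccl7, the genes of a macrophage growth factor and of a monocyte chemokine, were followed in cultured mouse keratinocytes given transforming growth factor β1 (TGF-β1). They are 2 of the 6795 named genes of the arrays, and the platform annotation assigns 1 probe to each. The pair was chosen by its own responses in these data, the log2 ratios of treated over untreated cells in every group, so its values are given as a description with no test. In primary Balb/c keratinocytes both ratios stood at 3.07 after 48 h, about 8.4 times the untreated level. In keratinocytes carrying Ha-ras they stood at 1.48 and 1.42. These means hold the arrays with treated RNA in Cy5, which did not overlap between the cell types, and the difference nearly vanished when arrays of reversed dye were added with their deposited sign.

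Colony stimulating factor 1, the product of Csf1, is the main survival and growth factor of macrophages and acts through the receptor encoded by Csf1r. CCL7 is a secreted CC chemokine that draws monocytes and other leukocytes through the receptors CCR1, CCR2 and CCR3. In skin, keratinocytes, fibroblasts and immune cells can all make such factors, and TGF-β1 is known both to restrain the growth of epithelial cells and to induce genes of matrix and wound repair, in part through the transcription factor SMAD3.

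The series holds 56 arrays with 2 colours, each comparing RNA of cells given TGF-β1 at 1 ng/ml with RNA of untreated cells that were otherwise alike. Keratinocytes, the main cells of the epidermis, were taken from newborn mice. They were kept as primary cultures or, for ras cells, transduced on day 3 of culture with a retrovirus that carries Ha-ras and cannot replicate, and treated 4 days later. Balb/c cells were treated for 1, 6, 24 or 48 h, which left 6, 7, 6 and 3 arrays of primary cells and 6, 7, 6 and 4 of ras cells in use. Smad3 wild type (WT) and knockout (KO) keratinocytes, labelled C57B1/SVJ, were treated for 48 h, with 1 array used for each genotype as primary and as ras cells. Ha-ras, or the loss of Smad3, was thus present in both channels of an array, and a ratio shows the response to TGF-β1 and not the effect of the oncogene or of the genotype. The share of cells that took up the retrovirus is not given in the sources used here.

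Every value here is a log2 ratio of treated over untreated cells, centred on the median of its array, with a direction that is likely from the order of the channels. The deposited values are ratios alone, so they show no level of a gene, and neither the keratinocyte label nor the Smad3 genotype could be checked against a level. Medians before centring lay between -0.146 and 0.02, while the SD over probes differed widely between arrays, from 0.194 to 1.81. The 7 arrays on which the treated RNA carried the other dye (Cy3) were left out of the means because the sign of their deposited ratios is not settled, and their values are given separately. Arrays of a group may be repeats of the same RNA, so that SDs and p-values measure the spread between arrays.

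The sequence before the start of Csf1, on chromosome 3, is shown because a match to a binding motif of NF-κB, a factor of inflammatory gene control, lies in it. It holds the 250 bases before the start site, read from the RefSeq promoter table of GRCm38.p6 at chr3:107760470-107760719 on the minus strand. Capitals mark the NF-κB match and both matches of the Sp1 motif:
Csf1: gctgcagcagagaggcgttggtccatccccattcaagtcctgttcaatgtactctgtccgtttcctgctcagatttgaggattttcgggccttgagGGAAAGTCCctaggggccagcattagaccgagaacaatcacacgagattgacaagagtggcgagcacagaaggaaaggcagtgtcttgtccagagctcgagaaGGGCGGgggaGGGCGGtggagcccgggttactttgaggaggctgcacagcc

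The NF-κB motif GGACTTTCC, searched on both strands, matched once in the Csf1 window, read on the other strand with its first base 154 bases before the start. Of 32851 RefSeq promoters of the same length, 0.283% held this exact string. Other spellings of the motif were not searched, so the share is not that of NF-κB motifs in general. The Sp1 motif GGGCGG matched at 51 and 41 bases before the start of Csf1, and 32.7% of promoters held it. No match was found in this window for the AP-1 motif TGANTCA (6.75% of promoters), the palindromic SMAD motif GTCTAGAC (0.167%), the shorter SMAD motif CAGAC (42.2%) or TATAAA (12.4%). The marked matches did not overlap one another. CAGAC is not a part of the palindrome. AGAC, the end of the palindrome, stands in the window and was not among the motifs searched. The matches describe letters and are not measured binding sites. Ccl7 lies on chromosome 11 directly after Ccl2 in the RefSeq order of genes, followed by Ccl11, Ccl12 and Ccl8, all of them chemokine genes of the same class.

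Csf1 in primary keratinocytes stood higher at each later time. At 1 h its log2 ratio lay between -0.05 and 0.86 on 6 arrays with a median of 0.11 and a mean of 0.27 (SD 0.37), or 0.15 without replicate 5. At 6 h the 7 arrays ranged from -1.61 to 1.27 with a median of 0.82 and a mean of 0.49 (SD 0.97). Of these 6 were above 0, and replicate 4 alone lay below. Without that array the 6 h mean was 0.84.

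At 24 h the Csf1 ratio was positive on all 6 primary arrays, from 0.45 to 2.86 with a median of 1.53. The mean was 1.53 (SD 0.78, n = 6), a 2.88-fold ratio. At 48 h the 3 arrays, replicates 1, 2 and 5, gave 3.41, 3.59 and 2.22, and the mean of 3.07 (SD 0.75, n = 3) is an 8.41-fold ratio. The 48 h values began within the range of those at 24 h, because 1 array at 24 h reached 2.86 and 1 at 48 h stood at 2.22. Among the 6795 named genes, ordered from the highest mean ratio, Csf1 held place 2 at both 24 and 48 h in primary cells.

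In ras keratinocytes the Csf1 ratio was above 0 on all arrays at 1 and 6 h. At 1 h it ranged from 0.30 to 1.06 with a median of 0.63 and a mean of 0.64 (SD 0.34, n = 6). At 6 h it ranged from 0.002 to 1.09 with a median of 0.88 and a mean of 0.64 (SD 0.42, n = 7). At 24 h it was positive on 4 of 6 arrays, from -0.48 to 1.07 with a median of 0.65 and a mean of 0.40 (SD 0.70), or 0.27 without replicate 3. No stepwise increase over these 3 times was seen in ras cells, unlike the order of the primary means, and the difference in time course was not tested. At 48 h replicates 1, 2, 3 and 4 gave 2.13, 0.60, 2.10 and 1.07. All 4 were positive, 2 of them near 2.1 and 2 lower, with a mean of 1.48 (SD 0.76) or 2.78-fold and place 4 among the named genes.

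Ccl7 in primary keratinocytes was above 0 on all 22 Cy5 arrays of the time course. At 1 h it ranged from 0.006 to 0.55 with a median of 0.37 and a mean of 0.34 (SD 0.21, n = 6). At 6 h it ranged from 0.08 to 1.12 with a median of 0.52 and a mean of 0.48 (SD 0.36, n = 7). The array on which Csf1 stood at -1.61 gave a positive Ccl7 ratio. At 24 h Ccl7 ranged from 0.34 to 1.90 with a median of 0.86 and a mean of 1.00 (SD 0.59, n = 6), a 2.0-fold ratio and place 12 of the named genes. At 48 h replicates 1, 2 and 5 gave 3.31, 3.65 and 2.25, all above every array at 24 h. Their mean of 3.07 (SD 0.73, n = 3) is an 8.40-fold ratio and held place 3.

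In ras keratinocytes Ccl7 stayed near 0 early. At 1 h it was positive on 3 of 6 arrays, from -0.34 to 0.77 with a median of -0.03 and a mean of 0.05 (SD 0.42), or -0.09 to 0.13 without single arrays. At 6 h it was positive on 6 of 7 arrays, from -0.13 to 0.95 with a median of 0.15 and a mean of 0.27 (SD 0.36), or 0.16 without replicate 6. At 24 h it was positive on 4 of 6 arrays, from -0.25 to 1.26 with a median of 0.42 and a mean of 0.38 (SD 0.57). Without replicate 2 this mean was 0.21, and with array weights it was 0.82. The ranges at the 3 times overlap widely. At 48 h replicates 1, 2, 3 and 4 gave 1.78, 1.53, 1.93 and 0.45. The first 3 lay above every earlier ras array, and replicate 4 did not. The mean was 1.42 (SD 0.67, n = 4), a 2.68-fold ratio at place 5 of the named genes.

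**Figure D1:**
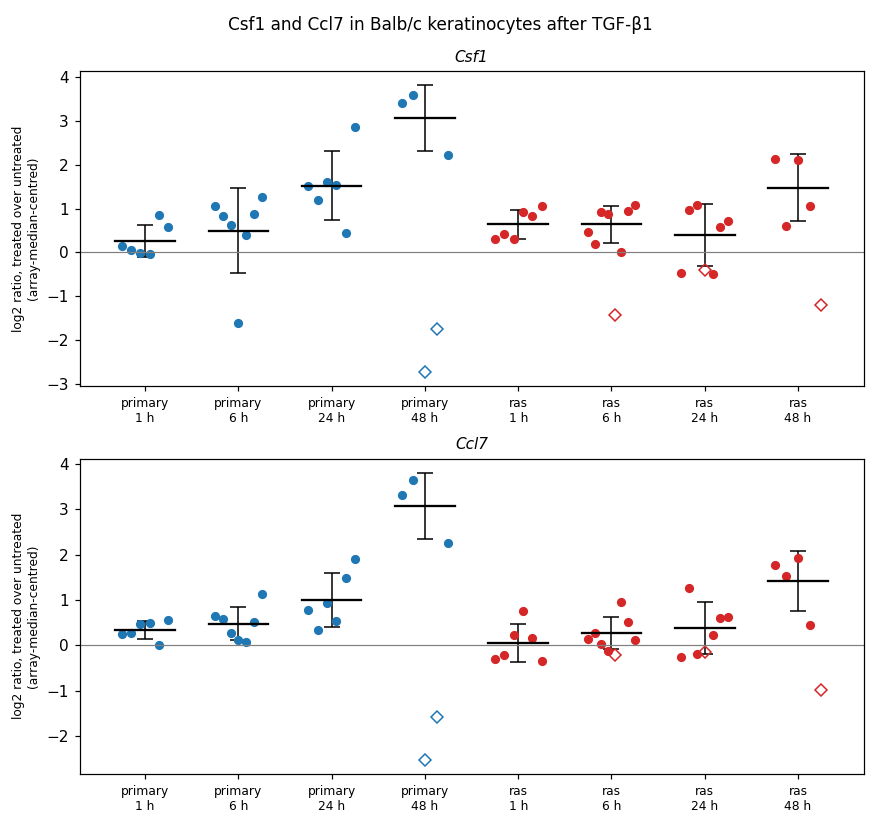
Log2 ratio of treated over untreated cells (vertical axis, array-median-centred) for Csf1 (top) and Ccl7 (bottom) by cell type and hours of TGF-β1. Filled circles are Cy5 arrays, open diamonds are arrays with the dyes reversed as deposited, lines are means of the circles and bars are ± 1 SD. The highest means are those of primary cells at 48 h, 3.07 for both genes, and all open diamonds lie below 0.

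Ordered by mean, the Csf1 response was highest in primary cells at 48 h, followed by primary 24 h, ras 48 h, ras 1 h, ras 6 h, primary 6 h, ras 24 h and primary 1 h. Every neighbouring pair in this order had overlapping ranges. The steps from primary 48 h to primary 24 h (1.55) and from ras 48 h to ras 1 h (0.83) were larger than the larger SD of the pair, and the other 5 steps were smaller. For Ccl7 the order was primary 48 h, ras 48 h, primary 24 h, primary 6 h, ras 24 h, primary 1 h, ras 6 h and ras 1 h. The first step for Ccl7, 1.65, separated groups whose arrays did not overlap. All later steps lay within the larger SD of the pair.

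The increments between times differed in size between the genes, and in ras cells the early steps also differed in sign. In primary cells the Csf1 mean was 1.03 higher at 24 h than at 6 h and a further 1.55 higher at 48 h. For Ccl7 these differences were 0.52 and 2.07. In ras cells the 24 h to 48 h differences were 1.07 for Csf1 and 1.04 for Ccl7. The ras steps from 1 to 6 h and from 6 to 24 h were -0.0009 and -0.24 for Csf1. For Ccl7 they were 0.22 and 0.11, and all of these early steps were smaller than the SDs of the groups. These differences between means of log2 ratios were not tested.

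Primary and ras cells were compared at each time. At 48 h the response of ras cells was lower by 1.60 for Csf1 and by 1.65 for Ccl7, so that the primary response was 3.03 and 3.14 times the ras response. Among Cy5 arrays, the lowest primary value, 2.22 for Csf1 and 2.25 for Ccl7, lay above the highest ras value, 2.13 and 1.93, narrowly for Csf1. Reversed primary replicate 4 lies below those ras values under either sign (-1.74 or 1.74 for Csf1, -1.58 or 1.58 for Ccl7). For comparison, limma called 0.202% of the 8905 features in this contrast, and since the rule used the contrast, nothing is read from that share. At 24 h the ras minus primary difference was -1.13 for Csf1 and -0.62 for Ccl7, with overlapping ranges. At 1 h it was 0.38 and -0.29, and at 6 h 0.15 and -0.21, again with overlap.

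Experiment numbers in the labels were split into 6 runs at gaps over 500, a limit set here and not given by the labels. Of these runs 3 hold Cy5 arrays of both cell types at 48 h. In the first of these Csf1 stood at 3.41 on the primary array and at a mean of 1.37 on 2 ras arrays. The next held 3.59 against 2.10, and the last 2.22 against 1.07. For Ccl7 the same runs gave 3.31 against a mean of 1.65, 3.65 against 1.93 and 2.25 against 0.45. The primary value was higher in each of the 3 runs for both genes, and the ras minus primary difference was -2.04, -1.49 and -1.15 for Csf1 and -1.66, -1.72 and -1.80 for Ccl7. The run with the lowest primary values also held the lowest Ccl7 value of ras cells. What an experiment number marks is not stated.

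The reversed arrays bear on the same means. As deposited, the 2 reversed primary arrays at 48 h gave Csf1 ratios of -2.73 and -1.74 and Ccl7 ratios of -2.52 and -1.58. The reversed ras array at 48 h gave -1.20 for Csf1 and -0.99 for Ccl7, that at 24 h -0.41 and -0.16, and that at 6 h -1.44 and -0.21. All 10 of these values had the opposite sign to the mean of their group. With the sign as deposited 2 of the 10 lay within the range of the other arrays of the group, and with the sign turned 7 did. Over all features the 5 arrays correlated with the mean of their group at -0.07 to 0.13, which does not settle the sign. With these arrays kept as deposited, the 48 h means of Csf1 were 0.95 in primary and 0.94 in ras cells, and those of Ccl7 were 1.02 and 0.94. The ras minus primary difference was then -0.0087 for Csf1 and -0.083 for Ccl7. With the sign turned the differences were -1.32 and -1.33. With the sign turned and both dye orientations weighted equally, an alternative added after the data were seen, the primary means were 2.65 and 2.56, and the differences were -1.32 and -1.36. The difference between cell types at 48 h thus depends on the sign taken for these arrays. A constant preference of a probe for 1 dye cannot be told apart from the part of a response that all Cy5 arrays share, and it cancels in the differences between times on those arrays, such as 1.55 for Csf1 and 2.07 for Ccl7 from 24 to 48 h in primary cells.

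The genes of the pair were also set against each other on the 45 Balb/c arrays. Both ratios were above 0 on 35 arrays, and Csf1 was the higher on 30. The 7 arrays at 48 h lay close to equal values, with a median gap of 0.17 between the genes, against 0.52 on the 38 earlier arrays. On those 38 arrays Pearson's r was 0.44 and Spearman's rho 0.33, and on the 7 at 48 h they were 0.90 and 0.93. These correlations describe arrays that share culture conditions and the RNA behind both genes. Both sets of arrays join primary and ras cells, so the values at 48 h also hold the difference between the cell types. The widest gap was 1.73, on the primary 6 h array with the low Csf1 value. Of the 38 earlier arrays 8 had Csf1 alone above 1, 2 had Ccl7 alone above 1 and 2 had both.

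**Figure D2:**
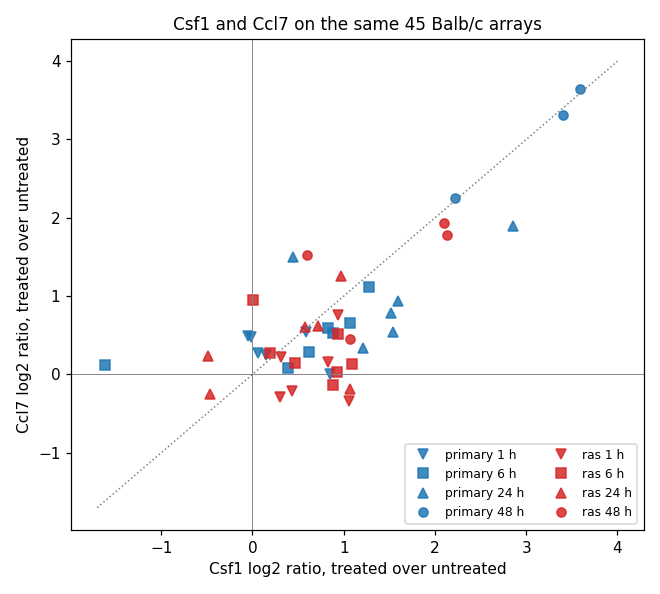
Csf1 (horizontal axis) against Ccl7 (vertical axis), both as log2 ratios of treated over untreated cells, on each of 45 Balb/c arrays, with primary cells in blue, ras cells in red and a symbol for each time. The dotted line marks equal values. The 3 primary arrays at 48 h sit along it at 2.22 to 3.59 for Csf1, and the earlier arrays scatter around it.

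The genes most like each member were named by Pearson's r over the same 45 arrays, and they share arrays, depth of response and time course with it. For Csf1 they were Bgn (r = 0.84), which encodes the matrix proteoglycan biglycan, Ddah1 (0.80), an enzyme that degrades methylarginines, Ccn1 (0.79), a matrix-associated signalling protein, Kcnj9 (0.78), a potassium channel subunit, and Dkk3 (0.78), a secreted protein of the dickkopf family. Ccl7 held place 15 for Csf1, with r = 0.75. Over the 8 group means r between Csf1 and Ccl7 was 0.96, whereas over deviations from group means it was 0.39. Kcnj9 was the closest of the 5 to Csf1 within groups, at 0.84, followed by Ccn1 at 0.74.

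For Ccl7 the closest gene was its neighbour Ccl2, the gene of a major monocyte chemokine (MCP-1), with r = 0.90 over arrays and 0.70 within groups. Mmp2 (r = 0.81), a matrix metalloproteinase gene, Ddah1 (0.80), S100a4 (0.78), a calcium-binding protein gene, and Rbpj (0.78), the transcription factor of Notch signalling, came next. Within groups these 4 stood at 0.27 to 0.57 with Ccl7. Of the 50 genes most like Csf1 and the 50 most like Ccl7, 21 were in both sets. At 48 h in primary cells the mean ratio was 2.13 for Bgn, 2.20 for Ddah1, 2.38 for S100a4 and 1.83 for Mmp2, and in ras cells 0.69, 0.70, 0.25 and 0.92. Kcnj9 went the other way, at 0.92 in primary and 1.05 in ras cells. These genes were picked for their likeness to the pair on the same arrays, so their values are no separate evidence of its pattern.

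Of the measured chemokine genes next to Ccl7, only Ccl2 was called higher in these responses. In primary cells Ccl2 rose by 1.13 at 24 h (SE 0.21, SD 0.59, n = 6, limma adjusted p = 0.00183). At 48 h its arrays gave 3.09, 3.01 and 1.90, a mean of 2.67 (SE 0.30, SD 0.66, n = 3, limma adjusted p = 6.06e-08) or 6.35-fold, against 3.07 for Ccl7. In ras cells at 48 h Ccl2 rose by 1.38 (SE 0.26, SD 0.58, n = 4, limma adjusted p = 0.00231), against 1.42 for Ccl7. The ras minus primary difference of Ccl2, -1.28 (SE 0.40), did not pass the test (limma adjusted p = 0.2001). Kept as deposited, the reversed arrays end both 48 h calls (adjusted p = 0.178 and 0.309), and so does a fit on the arrays of a group alone (0.0878 and 0.2002).

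The genes on the other side of Ccl7 had mean ratios below 0 at 48 h. The mean ratio of Ccl11, the eotaxin gene, was -0.41 (SE 0.30) in primary cells, and that of ras cells was -0.76 (SE 0.26). Ccl12, a mouse monocyte chemokine gene, stood at -0.16 (SE 0.34) and -0.33 (SE 0.30). Ccl8, a further gene of this group, stood at -0.12 (SE 0.32) and -0.08 (SE 0.28), and none of these 6 values passed the test. The coding sequences of these chemokines are related, and how far each probe tells the genes apart was not tested.

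**Figure D3:**
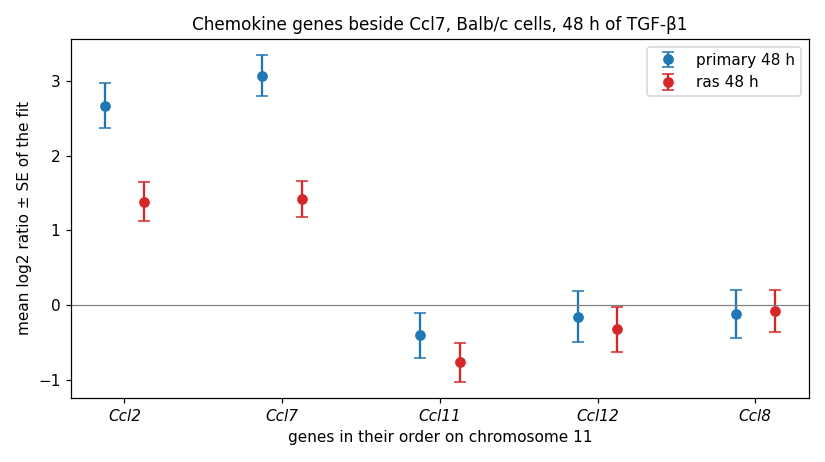
Mean log2 ratio of treated over untreated Balb/c cells at 48 h (vertical axis, bars ± SE of the limma fit) for Ccl7 and the measured chemokine genes beside it, in their order on chromosome 11, in primary (blue, n = 3) and ras cells (red, n = 4). Ccl2 and Ccl7 stand at 1.38 to 3.07, and Ccl11, Ccl12 and Ccl8 below 0.

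Across all features limma called 0.0112% at 1 h, 0.0112% at 6 h, 1.36% at 24 h and 8.6% at 48 h in primary cells. In ras cells the shares were 0.0786%, 1.73%, 10.5% and 3.5%. Related genes in 6 lists, leaving out the pair, were read against these shares: myeloid growth factors and their receptors (8 of 14 measured), CC chemokines (15 of 20), CXC and other chemokines (9 of 17), chemokine receptors (9 of 24), NF-κB genes (7 of 14) and AP-1 genes (7 of 12). These lists were chosen with earlier results of the data known, so a higher share among them is no separate evidence. Of the 55 measured genes none was called in primary cells at 1 or 6 h (limma called 4 and 6 at an unadjusted p under 0.05) or in ras cells at 1 h (5). Of all 8905 features limma called 478, 839 and 626 at an unadjusted p under 0.05 in the same responses. In primary cells 1 (1.82%) was called at 24 h and 7 (12.7%) at 48 h. In ras cells 3 (5.45%) were called at 6 h, 10 (18.2%) at 24 h and 6 (10.9%) at 48 h. The ras minus primary contrast at 48 h called none of the 55 with limma, which lies near the 0.202% of all features called. At an unadjusted p under 0.05 limma called 8 of the 55 and 594 of all 8905 features.

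Several of these counts rest on single arrays. The primary 24 h count was 2 without replicate 6, and the primary 48 h count was 4 without replicate 2. The ras 6 h count was 1 without replicate 8, and the ras 24 h count was 3 without replicate 1 and 6 without replicate 6. The ras 48 h count was 1 without replicate 1 and 2 without replicate 3. The 48 h contrast called 2 without primary replicate 5.

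The receptor gene Csf1r and Il34, the gene of its other ligand, were not measured. In primary cells at 48 h limma called none of the 8 list members, against 8.6% of all features. None of the 8 had an unadjusted p under 0.05 with limma, against 1961 of 8905 features. The list median was -0.06, against -0.05 over all features and 3.07 for Csf1. Csf2, the gene of the growth factor of granulocytes and macrophages, stood at 0.54 (SE 0.28) and Csf3, that of the granulocyte growth factor, at 0.37 (SE 0.21). In ras cells at 24 h, where the Csf1 mean was 0.40, Csf2 was called at 0.69 and Flt3l, a growth factor gene of dendritic cell precursors, at 0.55. At 48 h Csf2 stood at 0.71 in ras cells without passing the test (limma adjusted p = 0.0879). The 24 h call of Csf2 ended without replicate 3, 6 or 7 (limma adjusted p up to 0.135) and that of Flt3l without replicate 1 (0.127). Kitl, the stem cell factor gene, was called lower there at -3.10 with an SD of 4.28 over 6 arrays, and not without replicate 1, 3 or 5 (up to 0.193). These 3 calls at 24 h were 37.5% of the 8 measured genes, against 10.5% of all features.

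CC chemokines beside Ccl7 had 2 members up and 2 down of 15 in primary cells at 48 h (26.7%, against 8.6% of all features). The list median was -0.21, against 3.07 for Ccl7. The rises were those of Ccl2 and of Ccl9, a mouse chemokine gene for myeloid cells, by 1.48 (SE 0.34, limma adjusted p = 0.00341, and 0.240 without replicate 2). Ccl27a, a keratinocyte chemokine gene for T cells, fell by 1.34 (SE 0.24). Ccl5 was called at -1.84, but 1 array, replicate 1, stood at -6.34 and the other two were above 0, with a mean of 0.41 without it. In ras cells at 48 h, beside Ccl7 at 1.42, Ccl2 rose and Ccl22, a chemokine gene for T cells, fell by 0.97 (SE 0.27), with a list median of -0.23. At each of 6, 24 and 48 h 2 of the 15 (13.3%) were called in ras cells, against 1.73%, 10.5% and 3.5% of all features. At 6 h in ras cells Ccl20 fell by 1.27 and Ccl25 by 0.65. At 24 h Ccl8 fell by 0.72, and Ccl3 was called at 1.71 with 1 array at 6.60. Among the other chemokines Cxcl10, an interferon-induced gene, rose by 1.17 in primary cells at 48 h and by 0.62 in ras cells at 24 h. Cxcl5 fell by 1.77 in ras cells at 6 h and Cxcl9 by 1.14 at 48 h. Each was 1 of 9 measured genes (11.1%), against 8.6%, 10.5%, 1.73% and 3.5% of all features in that order. In ras cells several of these calls ended without single arrays. At 6 h this held for Ccl20 (limma adjusted p = 0.0511 without replicate 8) and Ccl25 (up to 0.277, without 1, 2, 6, 7 or 8). At 24 h it held for Ccl8 (up to 0.201, without 1, 3, 5 or 7), Ccl3 (up to 0.272, without 1 or 2) and Cxcl10 (up to 0.112, without 1, 6 or 7). At 48 h it held for Ccl22 (up to 0.358, without 1, 2 or 3) and Cxcl9 (up to 0.445, without 1 or 3).

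Receptors for CCL7 were covered only in part. Ccr2 was measured, while Ccr1 and Ccr3 were not. At 48 h Ccr2 had a mean of -0.89 (SE 0.50) in primary cells and of -0.30 (SE 0.43) with Ha-ras, and it was called lower in ras cells at 24 h, by 1.19. Of 9 measured receptor genes 1 fell in primary cells at 48 h (11.1%, against 8.6% of all features), Ackr3, a scavenging receptor gene, by 0.93. In ras cells 3 fell at 24 h (33.3%, against 10.5%), namely Ccr2, Ackr4 by 0.63 and Ccr7 at -2.38 with an SD of 3.46. At 48 h Ackr1 was called at -1.72 and Ackr3 at -0.73 (22.2%, against 3.5%). The ras 48 h call of Ackr3 ended without any 1 of the 4 arrays (limma adjusted p from 0.0687 to 0.139), and that of Ackr1 without replicate 1 (0.0946). The primary call of Ackr3 ended without replicate 2 or 5 (up to 0.089), and at 24 h those of Ccr2 without 1 or 3 (up to 0.22) and of Ackr4 without 1, 3, 5 or 6 (up to 0.37).

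Of the 7 measured NF-κB genes 1 fell in primary cells at 48 h (14.3%, against 8.6% of all features), Bcl3 by 1.18. Nfkbia, an inhibitor gene, rose in ras cells at 48 h by 0.64, and Nfkbiz was called at -2.34 in ras cells at 24 h with an SD of 3.38. Each was again 1 of 7 genes, against 3.5% and 10.5% of all features, and nothing is read from 1 call among so few. These calls ended without single arrays: Bcl3 without replicate 1 or 2 (limma adjusted p up to 0.127), Nfkbia without 1 or 3 (up to 0.212) and Nfkbiz without 6 (0.178). None of the 7 AP-1 genes was called by limma in any of the 8 responses, where at most 10.5% of all features were called. At an unadjusted p under 0.05, limma called 1 of them at 1 h and 2 at 24 h in primary cells, and 1 each at 1, 6 and 24 h in ras cells. Of all 8905 features it called 478 and 900 in those primary responses and 626, 1059 and 2193 in those ras responses.

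Markers of other cell types moved beside the pair in primary cells at 48 h, where 8.6% of all features were called. The marker lists were also chosen with earlier results of these data known, so a share above 8.6% is no separate evidence. Of 18 measured myeloid markers 4 rose and 1 was called lower (27.8% called). Their list median was 0.31, with a range of list medians of -0.003 to 0.52 over the 3 arrays. Lyz2, the lysozyme gene of macrophages and neutrophils, rose by 2.59 (SE 0.25, SD 0.63, n = 3, limma adjusted p = 1.77e-09), Ctss by 1.68, Tyrobp by 1.01 and Fcer1g by 0.77. Without replicate 2 the calls of Tyrobp (0.90, limma adjusted p = 0.0658) and Fcer1g (0.45, limma adjusted p = 0.346) ended. Spi1, a defining factor of macrophages, was called at -2.23 with arrays from -6.68 to 0.17 and -0.0073 without replicate 1. Among macrophage markers that were not called, Cd68 stood at 0.45 (SE 0.27), Adgre1 at -0.09 (SE 0.35) and Itgam at -0.24 (SE 0.94). Of the 18 means 11 were above 0. In ras cells 1 of the 18 was called (5.56%, against 3.5% of all features). This was Lyz2, higher by 0.96 (limma adjusted p = 0.092 without replicate 1 and 0.112 without 3). The list median there was -0.13, with array medians of -0.15 to 0.02. Lyz2 was lower in ras than in primary cells by 1.63 (SE 0.33, limma adjusted p = 0.0206), beside -1.60 and -1.65 for Csf1 and Ccl7. This call held in 9 of 14 settings and ended without primary replicate 2 or ras replicate 2 or 4 (up to 0.131). Of 11 fibroblast markers 3 rose in primary cells at 48 h (27.3%, against 8.6% of all features). They were Col1a2 by 1.83, Mfap5 by 1.77 and Twist1 by 1.28, with a list median of 0.27 and array medians of 0.11 to 0.71. The call of Col1a2 ended without replicate 1 (limma adjusted p = 0.055) or 2 (0.259). None rose in ras cells at 48 h (limma, also none at an unadjusted p under 0.05), with a median of -0.21 and array medians of -0.49 to 0.04. With 3.5% of all features called there, none among 11 genes lies near that share. In RNA of whole cultures, more cells of a type and more RNA per cell cannot be told apart. The part of these cell types in the Csf1 and Ccl7 ratios was not tested.

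The Smad3 arrays gave 1 Cy5 value for each genotype and cell type, so there is no replicate check. In primary cells Csf1 stood at 1.33 on the WT array and at -0.76 on the KO array, 2.10 lower. In ras cells it stood at -0.11 on the WT and 0.05 on the KO array. The WT primary value lies below the 3 Balb/c arrays at 48 h, of which the lowest was 2.22, and the WT ras value below the lowest Balb/c ras array, 0.60.

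Ccl7 stood below 0 on all 4 Smad3 Cy5 arrays. It was -0.16 in WT and -0.11 in KO primary cells, and -0.70 in WT and -0.65 in KO ras cells. On these 4 arrays the genotypes thus differed by at most 0.06 for Ccl7 within a cell type. The reversed KO arrays, given below, lay further from the WT values under either sign. The difference of the WT value from the Balb/c mean was -3.23 in primary cells and -2.12 in ras cells, and Ccl2 stood at -0.09 and -0.24 on the same WT arrays. The Smad3 arrays differ from the Balb/c arrays in strain and in run of experiment numbers, which cannot be told apart here. The reversed KO arrays, as deposited, gave Csf1 ratios of 0.36 in primary and 0.11 in ras cells and Ccl7 ratios of 1.31 and 1.29. For Ccl7 both lay far from the Cy5 array of the same group, although over all features these arrays correlated with it at 0.48 and 0.41.

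**Figure D4:**
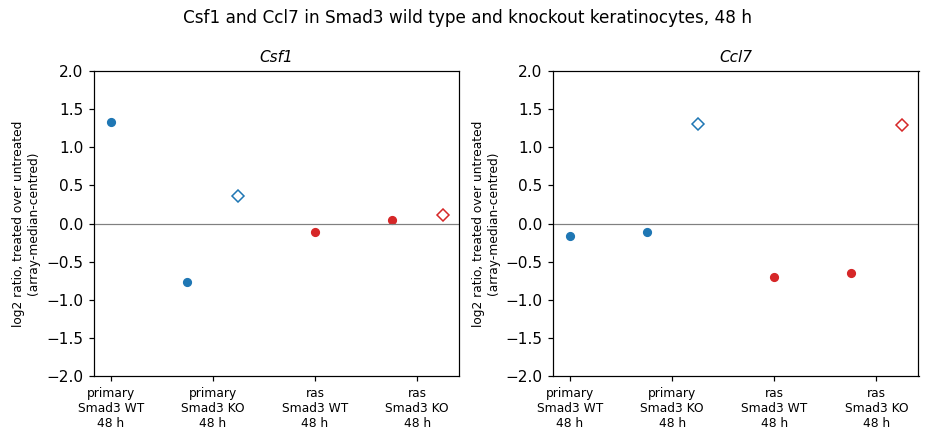
Log2 ratio of treated over untreated cells (vertical axis) for Csf1 (left) and Ccl7 (right) on each Smad3 array at 48 h, by cell type and genotype. Filled circles are Cy5 arrays, 1 in each group, and open diamonds are reversed arrays as deposited. Csf1 is at 1.33 in WT and -0.76 in KO primary cells, and all filled circles of Ccl7 lie below 0.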

How the data were processed

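The authors deposited 1 log ratio per probe and array (9596 probes, 56 arrays), used here as log2. None of the sources used here states the log base, background correction or normalization, and the signal behind each ratio is unknown, so the number of arrays limits the precision. Symbols came from the platform annotation and were updated through RefSeq: 7486 probes had 1 symbol, 483 several and 1627 none, and 7395 matched. Arrays were centred on their median, and probes of a symbol averaged, giving 8905 features. The 49 arrays with treated RNA in Cy5 were fitted together with limma 3.58.1 in R 4.3.3 (group means against 0 and ras minus primary, two-sided, Benjamini-Hochberg over all features, called at an adjusted p under 0.05), after the script was checked on simulated data. The members and lists were chosen with earlier results of these data known. Genes named are the pair, the 5 most like each, list genes called in a response and genes sharing a ligand, receptor or neighbourhood with the pair. Cd68 and Adgre1 were named after their values were seen. Alternatives covered the reversed arrays, centring, scaling, array weights, medians, runs as a random block, a replicate block, separate fits and each array left out.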

Additional observations from a re-analysis of the deposited data

Results flagged for a closer look

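Single arrays stood far from the rest of their group, by Dixon's test, in 8 of 43 sets tested. Most of these sets are list genes that limma called, and a single extreme array can help bring about such a call. The nominal rate of about 1 in 20 therefore does not apply to them, and nothing is read from the share. For Csf1 this was primary 6 h replicate 4 at -1.61, while Ccl7 on the same array was within the range of its group. In ras cells at 24 h the values were 6.60 for Ccl3 (replicate 2), -9.35 for Ccr7, -9.13 for Itgam and -6.14 for Sox10 (all replicate 1) and -9.18 for Nfkbiz (replicate 6). The others were Cxcl5 in ras cells at 6 h (-0.35, replicate 6) and Lyz2 in primary cells at 24 h (1.98, replicate 6).

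Several differences between groups had every Cy5 array on opposite sides of 0. Reversed arrays were left out of this comparison. As deposited, the reversed KO primary array gave 0.36 for Csf1, on the side of the wild type array. The reversed Balb/c primary arrays at 48 h gave -2.52 and -1.58 for Ccl7, also on the side of the Smad3 wild type array. Knockout minus wild type gave -2.10 for Csf1 in primary and 0.16 in ras cells. Smad3 wild type minus Balb/c at 48 h gave -1.58 for Csf1 in ras cells, and -3.23 in primary and -2.12 in ras cells for Ccl7. With 1 Smad3 Cy5 array in a group, opposite signs carry little weight, and none of these differences was tested. Of all 8905 features 18 (0.202%) passed the limma contrast of ras minus primary cells at 48 h. Among the list genes those that passed were Lyz2 (-1.63), Mfap5 (-1.44) and Twist1 (-1.21). They held in 9, 8 and 8 of 14 settings and in 4, 4 and 3 of 7 fits that left out 1 array, with adjusted p up to 0.131, 0.0751 and 0.215 in the latter. Without primary replicate 2 and without ras replicate 2 or 4 none of the 3 was called, and Twist1 was not called without primary replicate 1.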

How the results depend on the processing

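Of 210 values of the Csf1 and Ccl7 means under the alternatives, 208 stayed within 1 SD of the reported mean. The exceptions were the primary 48 h means with reversed arrays as deposited, 0.95 for Csf1 and 1.02 for Ccl7, and the other alternatives gave 2.43 to 3.50 and 2.43 to 3.48. A median, or a mean without 1 array, cannot leave this limit, so the count says nothing about those alternatives. Other means moved far within it. Reversed arrays as deposited took Csf1 in ras cells at 48 h from 1.48 to 0.94. Array weights took Ccl7 in ras cells at 24 h from 0.38 to 0.82. Counts of called pathway genes moved more. With reversed arrays as deposited they were 2 (primary 48 h), 0 (ras 6 h) and 6 (ras 24 h), and with the sign turned 3 (ras 24 h), 1 (ras 48 h) and 1 (contrast at 48 h). Scaling gave 4 (primary 24 h), 2 (ras 24 h) and 2 (ras 48 h), and array weights 5 (primary 24 h), 1 (ras 1 h), 6 (ras 6 h) and 6 (ras 24 h). Fits on a group alone gave 0 at primary 24 and 48 h and ras 24 and 48 h, and 5 at ras 6 h. Leaving out single arrays gave 1 to 2 (primary 24 h), 4 to 7 (primary 48 h), 1 to 3 (ras 6 h), 3 to 11 (ras 24 h), 1 to 5 (ras 48 h) and 0 to 2 (contrast). The replicate block gave 5 at ras 24 h, and of 19 primary and ras pairs of the same number 5 correlated above 0.1 (range -0.23 to 0.39), so the numbers were not taken to pair the samples. Signs turned for Ccl27a (0.0078) and Trp63 (0.0018) with reversed arrays as deposited. They also turned without 1 primary 48 h array for Ccl5 (-3.01 to 0.41), Cd8a (-2.65 to 0.0248) and Krt16 (-1.84 to 0.0853). The cause was not tested. Single probes were not run, since each member has 1. The unknown dye sign and the single Smad3 arrays limit these data, as do calls that need the spread shared over groups.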

Other observations

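Of 10 measured keratinocyte markers 4 were called lower in primary cells at 48 h, where Csf1 and Ccl7 were highest (40%, against 8.6% of all features). As the marker lists were chosen with earlier results known, nothing is read from their shares in this section. The median of the 10 keratinocyte markers was -0.54, with array medians of -1.20 to 0.12. Krt10, a keratin of differentiating cells, fell by 1.31. Krt15, a basal keratin, fell by 1.02 and Trp63, the master regulator of stratified epithelium, by 1.01, while Krt16 was called at -1.18 with 1 array at -3.71. Without replicate 2 Krt10 (adjusted p = 0.108), Krt15 (0.39) and Krt16 (0.94) were not called, nor was Krt10 without replicate 1 (0.113). In ras cells Krt10 was called at -0.96 at 48 h (the call ended if replicate 1 or 3 was left out, with an adjusted p of at most 0.439) and Itgb4 at 0.51 at 24 h (not without 1, 2, 3 or 7, up to 0.121). Each was 1 of 10 markers (10%), against 3.5% of all features at 48 h and 10.5% at 24 h in ras cells.

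Myeloid markers in ras cells at 24 h were called in both directions, 4 of 18 (22.2%, against 10.5% of all features). They were Lyz2 at 0.54, C1qa at 0.50, Mrc1 at -3.41 (SD 4.34) and Itgam at -2.03 (SD 3.49). Lyz2 held in 3 and C1qa in 4 of 14 settings. Calls ended without replicate 1 for all 4 genes (adjusted p of 0.188 for Lyz2, 0.441 for C1qa, 0.0671 for Mrc1 and 0.59 for Itgam), and also without replicates 2, 3 or 6 for Lyz2, 3 or 6 for C1qa and 6 for Itgam. Of 6 endothelial markers limma called none in any response (at an unadjusted p under 0.05, 1 at 6 h and 1 at 48 h in primary cells and 2 at 24 h in ras cells). Among so few genes this lies near the shares of all features. Of 7 lymphocyte markers 1 was called (14.3%, against 8.6% of all features), Cd8a in primary cells at 48 h at -1.75 with an SD of 3.07 (0.02 without replicate 2). Of 2 measured melanocyte markers 1 was called, Sox10 in ras cells at 24 h at -1.59 with an SD of 2.26 (-0.68 without replicate 1, adjusted p = 0.0964), where 10.5% of all features were called.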
